A study of Homo sapiens with 3 samples.

Results

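The lower steps of glycolysis were examined through 10 genes: ALDOA, ALDOC, TPI1, GAPDH, PGK1, PGAM1, ENO1, ENO2, ENO3 and PKM. They were chosen by name, as enzymes that carry fructose bisphosphate to pyruvate, with several of their isoenzymes, and each was found by its Ensembl identifier among the 62754 genes of the deposited table. The cells were MCF10A, a human breast epithelial line that grows without limit but forms no tumours, carrying the empty vector of a doxycycline-inducible retroviral expression system and selected with puromycin. They received no doxycycline and no other treatment, and no gene was placed in the vector. RNA was collected 27 h after seeding in 3 replicates of 1 batch, and libraries depleted of ribosomal RNA were made from 300 ng of it. All replicates belong to 1 condition, so levels were compared between genes and between replicates and no group was tested against another. Nothing in the labels says that the replicates were separate cultures, so the spread between them may be technical.

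In glycolysis a molecule of glucose is first primed with phosphate and then split by aldolase into a pair of triose phosphates, which TPI1 interconverts. GAPDH oxidizes glyceraldehyde 3-phosphate with NAD, PGK1 passes the resulting phosphate to ADP, PGAM1 moves the remaining phosphate along the glycerate, enolase removes water, and pyruvate kinase makes pyruvate and ATP. Several steps have isoenzymes with a tissue preference: ALDOC and ENO2 are best known from brain, ENO3 from muscle, and ENO1 and the PKM gene from most dividing cells. Proliferating epithelial cells commonly turn much of their pyruvate into lactate.

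Values are given in TPM, a level per transcript length, in which the genes of a replicate add up to 1000000. Multiplied back by length, the values of the annotated genes gave whole reads, with 15273329, 15446347 and 11166546 reads in replicates 1, 2 and 3. Intervals printed with reads are exact 95% Poisson intervals, which cover counting error only. Markers of basal epithelium were all present, 7 of 7 with a mean of 1 TPM or more, with KRT5 highest and their sum between 14577 and 18757 TPM. Of 6 luminal markers 3 passed that level, KRT18 being the highest at 413 TPM, and KRT19, ESR1 and PGR did not. Fibroblast markers reached 1 TPM in 2 of 5, with a summed level of 13.4 to 14.3 TPM and COL1A2, LUM and PDGFRA at 0. The leukocyte list had 1 of 4, summing to 1.15 to 2.96 TPM with CD3E at 0.

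At the messenger level 9 of the 10 genes had a mean of at least 1 TPM, where 56.7% of the 20046 protein-coding genes did. A mean of at least 100 TPM was reached by 6 of the 10, GAPDH, ENO1, PKM, TPI1, PGK1 and PGAM1, where 7.86% of protein-coding genes reached it. Of these, 3 exceeded 1000 TPM. ALDOC, ENO3 and ALDOA lay between 1 and 100 TPM, and ENO2 lay under 1 TPM. Together the 10 genes took 1.34%, 1.33% and 1.11% of all TPM in replicates 1, 2 and 3, a mean of 1.26% ± 0.132 (SD, n = 3).

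**Figure D1:**
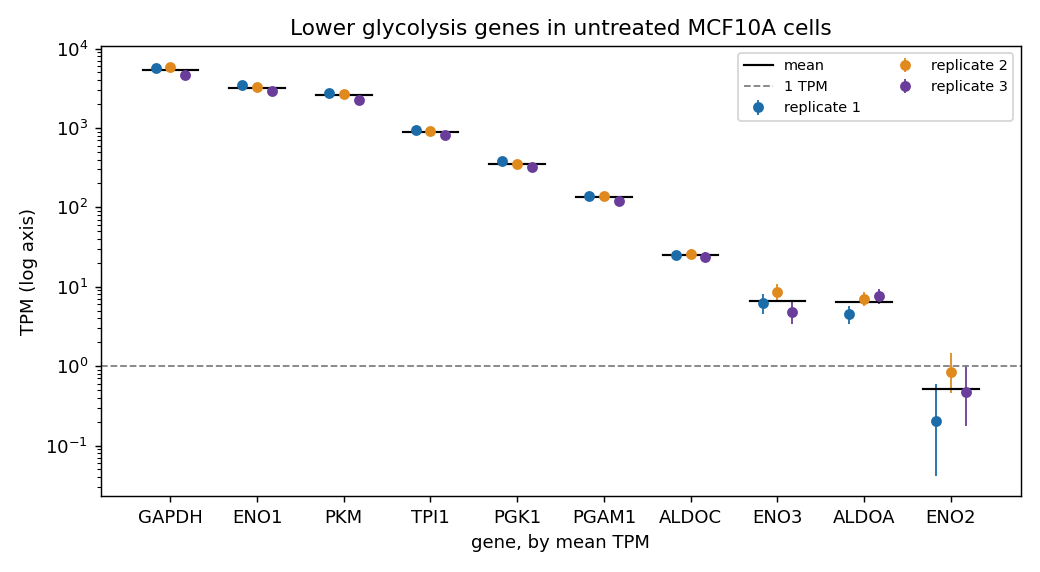
Level of each gene in TPM (log axis), in order of the mean. Points are replicates with their 95% Poisson interval, short black lines are means, and the dashed line is 1 TPM. GAPDH, with a mean of 5410 TPM, is at the left and ENO2, with 0.510 TPM, at the right.

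Some of these transcripts have close copies or twin exons, and the stretches that matter for reading the values are shown first. PGAM1 and PGAM4, an intronless relative on the X chromosome, differ at 13 of 762 coding bases, an identity of 98.3%. The longest stretch without a difference, bases 189 to 457 of the PGAM1 coding sequence, is identical in both genes, so that no read inside it can tell them apart:
PGAM1 and PGAM4, shared run of 269 bases: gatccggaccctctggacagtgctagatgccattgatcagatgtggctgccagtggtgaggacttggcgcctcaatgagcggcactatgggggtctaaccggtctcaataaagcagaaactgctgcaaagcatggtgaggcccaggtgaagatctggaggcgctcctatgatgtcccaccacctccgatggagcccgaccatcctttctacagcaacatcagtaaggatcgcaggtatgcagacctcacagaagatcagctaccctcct
The PKM gene holds a pair of exons of equal length that are used one at a time, the first giving the muscle and brain form PKM1 and the second PKM2, the form common in dividing cells. They lie on the minus strand of hg38 at chr15:72203022-72203188 and chr15:72202454-72202620, and 62 of their 167 bases differ, in capitals here:
PKM1 exon, 167 bases: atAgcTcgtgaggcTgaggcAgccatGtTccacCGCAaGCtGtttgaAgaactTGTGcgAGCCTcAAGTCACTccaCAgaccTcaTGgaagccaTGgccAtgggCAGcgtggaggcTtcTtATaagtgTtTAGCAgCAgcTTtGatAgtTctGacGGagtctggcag
PKM2 exon, 167 bases: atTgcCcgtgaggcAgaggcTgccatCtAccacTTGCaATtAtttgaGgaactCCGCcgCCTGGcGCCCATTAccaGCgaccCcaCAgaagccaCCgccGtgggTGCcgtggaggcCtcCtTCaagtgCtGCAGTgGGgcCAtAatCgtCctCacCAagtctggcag
Their longest identical run is 10 bases, so a read over this part could separate them, but the table gives 1 value per gene and the forms were not separated here.

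Aldolase, which splits fructose 1,6-bisphosphate, was the step with the lowest summed level among those examined. ALDOC (ENSG00000109107, chr17:28573115-28576948, minus strand) was measured at 24.8, 26.2 and 23.6 TPM in the replicates, in their order, from 224, 243 and 181 reads. Its mean of 24.9 ± 1.31 TPM (SD, n = 3) had a coefficient of variation of 5.28%, below the 6.86% that counting alone gives, and it ranked 5681st of the protein-coding genes. ALDOA (ENSG00000149925, chr16:30064164-30070457, plus strand), the aldolase of most tissues, was listed at 4.50, 7.09 and 7.68 TPM from 60, 97 and 87 reads. The mean of ALDOA was 6.42 ± 1.69 TPM (SD, n = 3), rank 9205. Replicate 1 was its lowest, with an interval of 3.44 to 5.80 TPM that did not meet the 6.15 to 9.47 TPM of replicate 3. As a share of the TPM of ALDOA and ALDOC together, ALDOC took 84.6%, 78.7% and 75.4% and ALDOA the rest, and the log2 ratio of ALDOA to ALDOC was -2.46, -1.89 and -1.62, a mean of -1.99 ± 0.43 (SD, n = 3).

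The ALDOA value has a limit that none of the other 9 genes shares. Its canonical transcript, ALDOA-218, has 1640 bases in 10 exons, and 1472 of them, 89.8%, also lie in exons of ENSG00000285043, a protein-coding gene on the same strand that starts upstream of ALDOA (chr16:30053123-30070414, 8 transcripts). The overlap takes in the whole coding sequence, since 0 of the 1254 coding bases are unshared, and leaves 168 bases in 1 exon, upstream of the coding sequence, to ALDOA alone. Over all annotated ALDOA transcripts 42.8% of exonic bases were shared. ENSG00000285043 was itself low, at 0.623, 1.29 and 0.732 TPM from 8, 17 and 8 reads. Added to ALDOA, it brought the mean only to 7.30 TPM. Counters that leave out reads lying in more than 1 gene would lose reads of both, and how such reads were treated is not given in the sources used here. If all ALDOA reads came from the 168 unshared bases, the level per length would be 67.8, 107 and 115 TPM. That is a mean of 96.6 ± 25.4 (SD, n = 3), and the log2 ratio to ALDOC would turn to 1.92. It is no corrected level, since other ALDOA transcripts hold further unshared bases and the length open to counting depends on read length. No order of ALDOA and ALDOC can therefore be read from the table, and the low aldolase sum of 31.3 ± 1.98 TPM (SD, n = 3) rests on the same value.

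**Figure D2:**
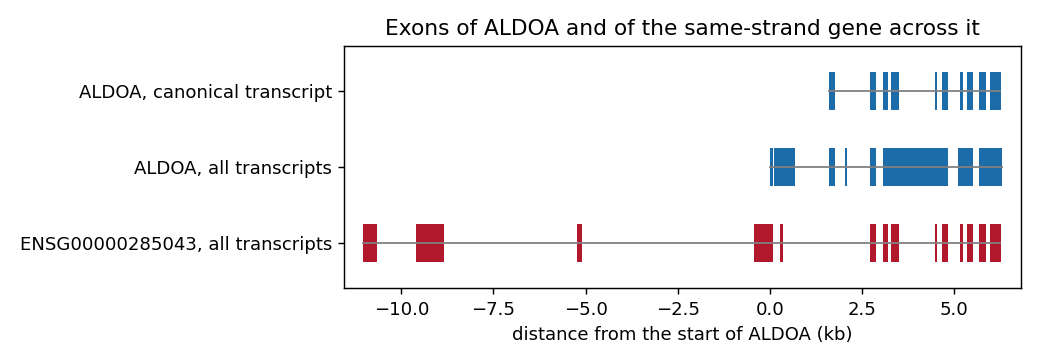
Exons (boxes) of ALDOA in its canonical transcript and in all transcripts, and of ENSG00000285043, by distance from the start of ALDOA in kb, to scale. All but the first exon of the canonical transcript, 1472 of 1640 bases, line up with exons of ENSG00000285043.

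For the remaining 9 genes 0% of the canonical transcript lay in exons of another gene on the same strand. PGK1 shared 1.78% of the exonic bases of all its transcripts, with ATP7A and C4orf46P2, none of them in the canonical one. On the opposite strand, where a count that ignores strand could mix genes, GAPDH had 422 bases (32.8% of the canonical transcript) covered by the long non-coding gene ENSG00000269968. That gene was read at 25.7, 29.4 and 11.1 TPM, and its 57, 67 and 21 reads came to 0.102% of those of GAPDH. ALDOC had 18.2% of its canonical transcript opposite the long non-coding ENSG00000265168, which had 0 reads, and TPI1 had 14 bases opposite SPSB2. Outside the canonical transcripts, ENO3 had 111 exonic bases opposite PFN1, profilin 1, which was far higher than ENO3 at a mean of 1982 ± 264 TPM (SD, n = 3) from 12841, 13843 and 8834 reads. ALDOA likewise had 520 bases opposite the long non-coding ENSG00000274904, with 5, 11 and 7 reads, and ENO1 had 126 bases opposite ENO1-AS1, with 3, 6 and 9 reads. The part of opposite-strand reads in these levels was not tested.

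TPI1, the triosephosphate isomerase (ENSG00000111669, chr12:6867119-6870948, plus strand), was measured at 934, 908 and 813 TPM from 8643, 8637 and 6399 reads. The mean was 885 ± 63.8 TPM (SD, n = 3), rank 122 of the protein-coding genes. Its level was well above the listed aldolase sum in each replicate, but that sum rests on the ALDOA value limited above.

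GAPDH (ENSG00000111640, chr12:6534512-6538374, plus strand), the dehydrogenase often used as a loading reference, was the most abundant of the 10 at 5722, 5907 and 4600 TPM, from 51750, 54912 and 35400 reads. Its mean of 5410 ± 707 TPM (SD, n = 3) ranked 9th of the protein-coding genes and made up 43.0% of the mean summed TPM of the 10. GAPDH also had the widest relative spread of the 6 genes above 100 TPM, a coefficient of variation of 13.1% where counting gives 0.468%. GAPDHS, the sperm isoenzyme, had 0 reads in every replicate.

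PGK1, the phosphoglycerate kinase of somatic cells (ENSG00000102144, chrX:77910739-78129295, plus strand), was measured at 387, 356 and 326 TPM, from 9789, 9254 and 7020 reads. The mean was 356 ± 30.4 TPM (SD, n = 3), rank 340. PGK2, its testis counterpart with 85.5% identical coding bases, had 0 reads in every replicate.

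PGAM1, the phosphoglycerate mutase (ENSG00000171314, chr10:97426191-97433444, plus strand), was the lowest of the genes above 100 TPM at 141, 138 and 121 TPM, from 1336, 1342 and 978 reads. Its mean was 133 ± 10.6 TPM (SD, n = 3), rank 1110. PGAM1 is also the gene whose transcript is least its own. Of its stretches of 50 bases 90.7% occur again elsewhere in hg38, and of those of 100 bases 84.6%. At 100 bases the matches fell on 5 kinds of place, and a stretch can match several. The processed pseudogenes ENSG00000186076 and ENSG00000216285 on chromosome 12 hold 40.8% and 32.8% of the stretches, parts of chromosome 12 outside annotated genes hold 30.6%, the span of GLT8D2, in which ENSG00000216285 lies, holds 29.5% beside it, and PGAM4 holds 17.4%. Reads listed were 0, 4 and 6 on ENSG00000186076, 1, 0 and 0 on ENSG00000216285, and 1, 2 and 0 on PGAM4. GLT8D2 had 46, 44 and 27 reads, and how many of them lay in the matching stretches was not tested. PGAM2, the muscle form, had 3, 0 and 1 reads and shares 77.6% of coding bases with PGAM1, with no identical run over 27 bases. Of phosphoglycerate mutase TPM 99.7% was listed on PGAM1. Read length is not given in the sources used here, and whether reads of PGAM1 were left out for matching several places was not tested, so its level is uncertain.

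Enolase, which makes phosphoenolpyruvate, was read almost wholly from ENO1. ENO1 (ENSG00000074800, chr1:8861000-8879190, minus strand) was measured at 3437, 3240 and 2883 TPM from 45990, 44560 and 32831 reads, a mean of 3187 ± 280 TPM (SD, n = 3) and rank 19. ENO3, the muscle enolase (ENSG00000108515, chr17:4948092-4957131, plus strand), was measured at 6.16, 8.56 and 4.88 TPM from 49, 70 and 33 reads, a mean of 6.53 ± 1.87 TPM (SD, n = 3) and rank 9174. The intervals of ENO3 in replicates 1 and 3, 4.56 to 8.15 and 3.36 to 6.85 TPM, overlapped. ENO2, the neuronal enolase (ENSG00000111674, chr12:6913745-6923698, plus strand), had 3, 13 and 6 reads, which gave 0.202, 0.852 and 0.475 TPM and a mean of 0.510 ± 0.326 (SD, n = 3). In replicate 1 ENO2 stood at the level that a count of 0 would allow, 3 reads. ENO1 held 99.8% of enolase TPM, ENO3 0.204% and ENO2 0.0162%. ENO4, a sperm enolase, had 2, 3 and 1 reads.

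The tissues for which ENO2 and ENO3 are known left little trace in the libraries. Of 4 skeletal muscle markers none reached 1 TPM, with MYH2, CKM and MYOG at 0 and a summed level of 0 to 0.166 TPM. Of 4 neuronal markers only TUBB3 did, at 1.21 TPM, with RBFOX3 at 0 and a summed level of 1.54 to 2.21 TPM. The part of other cell types in the enolase values was not tested. The coding sequences of the enolases are 75.9% identical between ENO1 and ENO2 and 76.1% between ENO1 and ENO3. A single run of 50 bases, bases 469 to 518 of the ENO1 coding sequence, is shared with ENO2, and no other stretch of that length in ENO2 occurs elsewhere in hg38.

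Since the enolases are the widest-spread family among the 10, the 250 bases before their starts are shown, from RefSeq on GRCh38.p14. ENO3 has a second start in that table, at chr17:4950869-4951118, of which only the values are given. Capitals mark the letters ACGTG, the core of hypoxia response elements, and GGGCGG, the GC box, on either strand, with overlapping matches joined.
ENO1, chr1:8878687-8878936, minus strand: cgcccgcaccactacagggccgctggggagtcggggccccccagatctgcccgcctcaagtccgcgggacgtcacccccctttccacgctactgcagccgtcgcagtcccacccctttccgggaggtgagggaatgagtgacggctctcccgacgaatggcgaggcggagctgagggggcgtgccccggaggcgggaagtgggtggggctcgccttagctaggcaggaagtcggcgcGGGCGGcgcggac
ENO2, chr12:6914330-6914579, plus strand: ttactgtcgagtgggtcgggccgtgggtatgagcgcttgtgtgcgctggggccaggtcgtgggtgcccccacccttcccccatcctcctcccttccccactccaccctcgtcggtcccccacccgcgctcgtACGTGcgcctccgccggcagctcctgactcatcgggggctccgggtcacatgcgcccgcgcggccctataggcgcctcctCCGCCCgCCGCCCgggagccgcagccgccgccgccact
ENO3, chr17:4950302-4950551, plus strand: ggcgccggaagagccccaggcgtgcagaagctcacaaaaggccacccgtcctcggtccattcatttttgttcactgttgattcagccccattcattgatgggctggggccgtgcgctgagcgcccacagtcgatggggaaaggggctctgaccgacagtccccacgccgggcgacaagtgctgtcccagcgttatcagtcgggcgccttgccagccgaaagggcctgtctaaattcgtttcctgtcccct
ENO1 had 1 GC box and no ACGTG, ENO2 had 2 GC boxes and 1 ACGTG, and ENO3 had neither. TATAAA was in none of the 3. Of all 35116 promoters of that length 18.5% held ACGTG, 42.6% GGGCGG and 10.7% TATAAA. Guanine and cytosine made up 72.0%, 74.0% and 61.2% of the windows of ENO1, ENO2 and ENO3, against a median of 58.0% over all promoters, and CG pairs numbered 27, 30 and 18 against a median of 11. The window of the second ENO3 start had 60.0% guanine and cytosine, 3 CG pairs, and none of the 3 motifs. ENO2, the lowest in level, thus had the window richest in CG pairs of those shown. The letters are a description of these windows, and nothing was measured there.

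PKM, the pyruvate kinase of most tissues (ENSG00000067225, chr15:72199029-72231819, minus strand), closed the pathway at 2736, 2697 and 2279 TPM from 43442, 44028 and 30799 reads. Its mean was 2571 ± 253 TPM (SD, n = 3), rank 27. The gene has 25 annotated transcripts, and its value does not say which of them, or which form, was read. PKLR, the liver and red cell pyruvate kinase, had 0 reads in every replicate. For a gene of 1000 bases, 0 reads allows up to 0.569, 0.554 and 0.669 TPM in replicates 1, 2 and 3, the level of 3 reads.

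Regulators known to choose between the PKM exons were all read. HNRNPA1, which with PTBP1 and HNRNPA2B1 holds back the PKM1 exon, was the highest of the 5 at 481 TPM, and PTBP1, HNRNPA2B1 and SRSF3 lay at 364, 362 and 233 TPM. RBM4, which acts toward the PKM1 exon in muscle and nerve, was listed at 11.0 TPM, but 96.9% of its canonical transcript lies in exons of another gene on the same strand. These levels do not say which exon was used.

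**Figure D3:**
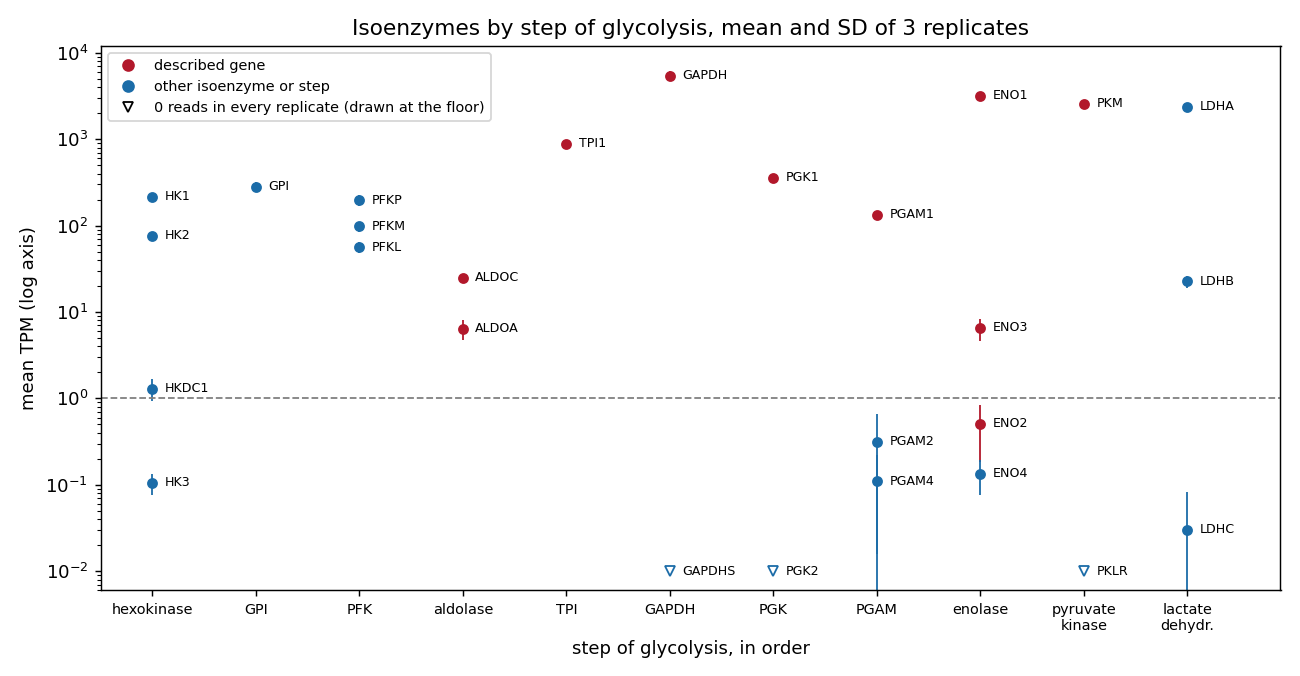
Mean TPM (log axis) of the isoenzymes at each step of glycolysis from hexokinase to lactate dehydrogenase, red for the 10 genes and blue for others. Bars are the SD of 3 replicates, with those that would pass 0 cut short, open triangles at the lower edge mark genes with 0 reads, and the dashed line is 1 TPM. From GAPDH to pyruvate kinase the described gene with the highest mean lies over 100 TPM at each step and every other isoenzyme under 10 TPM.

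Ordered by mean, the levels ran GAPDH, ENO1, PKM, TPI1, PGK1, PGAM1, ALDOC, ENO3, ALDOA, ENO2. Neighbours were taken as separated where the higher was higher in each of the 3 replicates and the means differed by more than the larger SD, which was so for 8 of 9 pairs. The closest separated pair was ENO1 over PKM, with a ratio of means of 1.24, and the widest gap was ALDOA over ENO2, 12.6. ENO3 and ALDOA did not separate, with a ratio of 1.02 and ENO3 higher in 2 of 3 replicates. With the length of the canonical transcript in place of the longest one, ALDOA came to 8.12 TPM and ENO3 to 5.55 TPM, and all 9 pairs separated. The place of ALDOA rests on the value limited above. With its 168 unshared bases as its length, ALDOA at 96.6 TPM stood between PGAM1 and ALDOC, all 9 pairs separated, and the widest gap was ENO3 over ENO2, 12.8. Enzyme order along the pathway was not the order of levels, since PGK1 and PGAM1 lay between the far higher GAPDH and ENO1.

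Copies elsewhere in the genome touched the other genes less than PGAM1. Of stretches of 50 bases, TPI1 had 42.6% elsewhere in hg38, GAPDH 25.6%, PGK1 8.34%, PKM 4.34%, ENO1 3.46%, ENO3 1.64%, ALDOA 0.691% and ENO2 0.0445%, and ALDOC had none. At 100 bases TPI1 kept 12.6%, on the processed pseudogenes TPI1P1 and, for 3 stretches, TPI1P3, and PGK1 1.70%, while the other 7 genes had none. The annotation names 95 pseudogenes after the 10 genes, 65 of them after GAPDH, and 27 had any read. Their summed level was 18.8 TPM, 0.150% of that of the 10 genes. Relative to its parent the sum was highest for PGAM1, 3.55%, with PGAM1P11 leading at 1.56 TPM. For TPI1 it was 0.551% (TPI1P1, 3.94 TPM), for PGK1 0.189% (PGK1P1, 0.674 TPM), for GAPDH 0.140% (GAPDHP1, 2.87 TPM), for ENO1 0.0201% (ENO1P3, 0.641 TPM) and for PKM 0.0126% (PKMP4, 0.202 TPM). These sums leave out copies not named after a parent gene, as ENSG00000186076 and ENSG00000216285 for PGAM1. Whether reads of TPI1, GAPDH or the others were left out for matching several places was not tested.

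**Figure D4:**
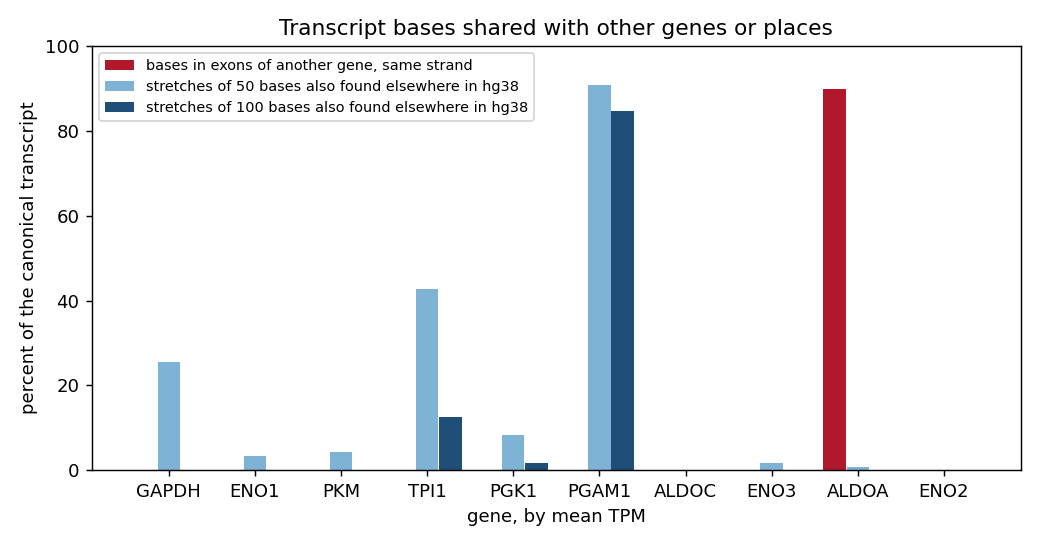
For each gene, the percent of its canonical transcript that lies in exons of another gene on the same strand (red), and the percent of its stretches of 50 and 100 bases found again elsewhere in hg38 (light and dark blue). ALDOA stands alone in the first measure at 89.8%, and PGAM1 is highest in the others at 90.7% and 84.6%.

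Replicate 3 gave the lowest value for all 7 genes that averaged at least 10 TPM, where 82.8% of the 8809 genes at that level were lowest there. Against the geometric mean of replicates 1 and 2, the log2 difference in replicate 3 ran from -0.34 for GAPDH to -0.11 for ALDOC, with a median of -0.20, beside a median of -0.24 over all genes at that level. The 3 libraries differed in what else they held, protein-coding genes making up 91.5%, 89.8% and 79.6% of TPM. With protein-coding genes scaled to 1000000 in each replicate, the median of the 7 genes was -0.01 and of all genes -0.05, and 3 of the 7 were lowest in replicate 3, beside 47.8% of the 8809 genes on that scale. On that scale the 10 genes took 1.46%, 1.48% and 1.39% of protein-coding TPM. The median SD of log2(TPM + 1) was 0.14 over the 10 genes. Over the 7 that averaged 10 TPM or more it was 0.12, beside 0.16 over all genes at that level. In the 6 genes above 100 TPM the coefficients of variation were 7.22% to 13.1%, where counting gives 0.468% to 2.90%.

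**Figure D5:**
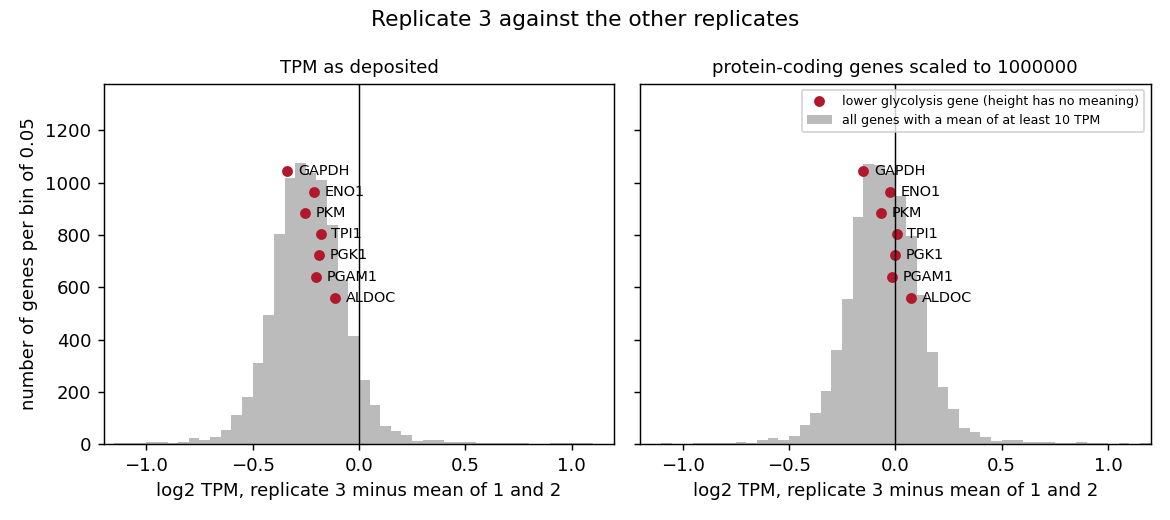
Number of genes by log2 difference of replicate 3 from the mean of log2 TPM in replicates 1 and 2, for genes of at least 10 TPM on average (grey), with the 7 lower glycolysis genes as red points whose height has no meaning. The left panel has TPM as deposited, with medians of -0.20 for the 7 genes and -0.24 for all, and the right panel has protein-coding genes scaled to 1000000, with medians of -0.01 and -0.05.

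GAPDH, TPI1 and ENO2 lie within 389 kb of chromosome 12, TPI1 329 kb beyond GAPDH and ENO2 42.8 kb beyond TPI1, and their means of 5410, 885 and 0.510 TPM show no common level. The genes nearest to the 10 in their pattern over the 3 replicates, among 1570 protein-coding genes averaging at least 100 TPM, were AHCY, EIF3I and HAX1, at Euclidean distances of 0.0170, 0.0171 and 0.0177 in log2 TPM from the median of the 10. With 3 replicates such nearness is common, 154 of the candidates lying within 0.05.

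Beside the 10, 49 other genes of central carbon metabolism and of PKM splicing were read, of which 34 had a mean of at least 1 TPM and 12 at least 100 TPM. Glucose entry and upper glycolysis had 9 of 12 at 1 TPM, led by GPI, the glucose phosphate isomerase, at 283 TPM, with HK3 at 0.106 TPM. GPI thus lay below PGK1 in each replicate and was the highest of its list. Of the 7 tissue-restricted isoenzymes of the lower steps none reached 1 TPM, 4 had 0 reads, and PGAM2, PGAM4 and ENO4 had means of 0.317, 0.110 and 0.135 TPM. Downstream, 11 of 12 genes that take pyruvate to lactate or into mitochondria passed. LDHA, which reduces pyruvate to lactate, was measured at 2622, 2254 and 2236 TPM, a mean of 2371, close to PKM, while LDHC, the testis form, had 0.0304 TPM. LDHB was listed at 22.7 TPM, but 76.5% of its canonical transcript lies in exons of another gene on the same strand. Side branches that leave at the trioses and at 3-phosphoglycerate had 7 of 8 genes at 1 TPM, led by PSAT1 of serine synthesis at 154 TPM, and GPD1 had a mean of 0.321 TPM that came from replicate 2 alone. For the reverse direction 2 of 6 genes passed, G6PC3 at 51.2 TPM and PCK2, which have roles outside gluconeogenesis as well. FBP1 had 0.0919 TPM, and FBP2, PCK1 and G6PC1 were at 0.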

How the data were processed

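RNA-seq was measured in 3 untreated replicates of MCF10A cells with an empty vector. The authors deposited 1 table of TPM, made after depletion of ribosomal RNA, mapping to hg38 and counting with Seq2science. STAR, fastp, MultiQC, hg38 and GRCh38.p14 are named in the submitters' processing notes. The annotation release, read length, strand setting and treatment of reads on several genes are not given in the sources used here.

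The TPM values were used as deposited. Positions, canonical transcripts and lengths were those of GENCODE release 44 (hg38), which held 62700 of the 62754 genes. Reads were TPM times length (the longest transcript, 1 base less per exon) divided by the smallest value above 0, and 100% were whole within 1e-06, so the totals of 15273329, 15446347 and 11166546 reads rest on that step being 1 read. Shared bases were counted between exons, and repeated stretches were exact matches on either strand of hg38. Coding sequences were aligned globally. Promoters came from RefSeq, and proteins were not used here. No test was run, since there is 1 condition.

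The 10 genes, the pathway and marker lists and the cutoffs were chosen with earlier results of these data known. Named are the 10 genes, genes over at least 10% of a canonical transcript, the highest pseudogene of each, all tissue-restricted isoenzymes, the highest gene and those below 1 TPM of each pathway list, and the 3 genes nearest in pattern. Genes of the lists that are counted but not named are not reported here. The other splicing genes, LDHB, ATP7A, C4orf46P2, the genes on opposite strands, TPI1P3, the further copies of PGAM1 and the markers were named after their values were seen. On simulated data 100% of the reads of 62700 genes and 125 of 125 planted stretches were returned. Python 3.11.15, numpy 2.4.6, pandas 2.3.3, Biopython 1.88 and matplotlib 3.10.9 were used.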

Additional observations from a re-analysis of the deposited data

How the results depend on the processing

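The counts of 9 genes at 1 TPM and 6 at 100 TPM changed only to 10 genes at a cutoff of 0.5 TPM and 5 at 200 TPM. The ENO1 share of enolase changed little with the replicate left out and the scalings tried. Under these 8 neighbouring pairs stayed separated, but ENO3 and ALDOA changed places in some. ALDOA was higher without replicate 1 (7.38 against 6.72 TPM), without replicate 2 (6.09 against 5.52 TPM) and on the protein-coding scale (7.49 against 7.46 TPM). ENO3 stayed higher without replicate 3 and without mitochondrially encoded genes. Scaling protein-coding genes to 1000000 raised the summed TPM of the 10 genes from 12580 to 14440, lowered the number lowest in replicate 3 from 7 to 3, and lowered the median SD of log2 TPM from 0.138 to 0.056. Leaving out each replicate gave that SD a range of 0.0566 (without replicate 3) to 0.182, and the mean of ENO2 a range of 0.339 to 0.664 TPM. Added after the data were seen, canonical lengths moved the log2 ratio of ALDOA to ALDOC from -1.99 to -1.46 and 5 single levels, 2 of them upward. With the unshared bases as the length of ALDOA the ratio reversed to 1.92 and ALDOA rose to 96.6 TPM, between PGAM1 and ALDOC, by the construction of that length. No paired analysis was possible because there is 1 group. Reads were fewest for ENO2, ENO3 and ALDOA, with 22, 152 and 244 in all. Depth limits these values, and for ALDOA reads in shared bases may also be uncounted.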
